A study of Homo sapiens with 6 samples.

Results

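The cytosolic ribosomal protein genes, that is, the genes for the proteins of the ribosomes that translate nuclear mRNA, were followed in LX-2 cells with and without silencing of OGT. They were found by symbol, as RPL or RPS followed by a number, by P0 to P2 or by A, with the usual letter suffixes A and X, and with a total of at least 10 counts over the 6 libraries. This gave 77 of the 16907 gene symbols, 46 of the large subunit (RPL) and 31 of the small subunit (RPS). All 77 were among the 14853 genes that entered the test. Genes with a longer or different name that encode a ribosomal protein, such as FAU and RACK1, were kept apart as relatives.

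LX-2 is an established human line of hepatic stellate origin; stellate cells of the liver become matrix-producing myofibroblasts on injury. The cells, grown with fetal bovine serum, had been transfected with 20 nM of small interfering RNA, either siControl or siOGT, and were kept for 72 h, with 3 libraries of polyadenylated RNA in each group. OGT puts the sugar N-acetylglucosamine on serines and threonines of intracellular proteins (O-GlcNAc), and both groups shared the line, the medium and the transfection. The values therefore describe a single line and a single silencing reagent as the labels name it.

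The libraries held between 25996770 and 27966801 expected counts (reads that match several genes are divided between them). OGT itself had 177, 137 and 121 CPM (counts scaled to a common library total with TMM factors) in siControl and 39.9, 27.0 and 29.2 CPM in siOGT, so that it was silenced (log2 fold change -2.18, edgeR adjusted p = 2.712e-12). Of 8 stellate cell markers, COL1A1, at 2658 CPM, and VIM, at 3200 CPM in siControl, were abundant and LRAT did not reach the count minimum. COL1A1, COL1A2, COL3A1 and PDGFRB were lower in siOGT. Of the 7 stellate markers tested, edgeR called 4, all lower, beside 25.4% of all genes, and DESeq2 with the replicate block called 3, all lower. The log2 fold change was positive for 1 of the 7. Among markers of other liver cells, ALB and EPCAM did not reach the minimum, APOA1 and KRT19 were at most at 0.0868 CPM, PECAM1, CDH5, PTPRC and CSF1R were between 0.520 and 1.75 CPM in both groups, and KRT7 was at 7.17 and 5.81 CPM. CD68, which macrophages express strongly and many other cells also use, was at 137 and 188 CPM and rose. The part of these markers in the ribosomal protein values was not tested.

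Each ribosome joins a small subunit, which reads the mRNA, to a large subunit, which forms the peptide bonds, and needs nearly every ribosomal protein in equal number. The mRNAs of vertebrate ribosomal proteins typically begin with a C followed by an unbroken run of pyrimidines, the terminal oligopyrimidine (TOP) tract, through which their translation is tuned by the nutrient sensor mTORC1 and the binding protein LARP1. Their amounts are therefore known to be set largely by translation and by protein stability, which RNA libraries do not measure.

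The letters around annotated starts are shown for the 5 members that passed the test and for 4 others used for comparison. Each window has 15 bases before the annotated start and 15 from the start on, read 5′ to 3′ on the strand of the gene from the RefSeq table of GRCh38.p14, and capitals mark a run of at least 5 pyrimidines that opens with a C at the annotated start.
RPL28, chr19:55385917-55385946, plus strand: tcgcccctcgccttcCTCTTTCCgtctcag
RPS28, chr19:8321481-8321510, plus strand: tccccgaagcacgtgactcctctccgccag
RPL3, chr22:39319609-39319638, minus strand: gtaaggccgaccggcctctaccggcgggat
RPL36A, chrX:101390996-101391025, plus strand: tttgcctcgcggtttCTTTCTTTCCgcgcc
RPS16, chr19:39435935-39435964, minus strand: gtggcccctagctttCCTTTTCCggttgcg
RPL7A, chr9:133348203-133348232, plus strand: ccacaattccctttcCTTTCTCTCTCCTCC
RPLP0, chr12:120201097-120201126, minus strand: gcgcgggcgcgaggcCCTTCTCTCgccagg
RPLP2, chr11:809952-809981, plus strand: ttgcgtcggcgccttCCTTTTCCTCCCTgt
RPS4X, chrX:72277234-72277263, minus strand: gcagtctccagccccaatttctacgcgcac

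The run was 8 bases long in RPL28 and RPS16 and 10 in RPL36A. RPS28 and RPS4X began with an A at the annotated start, and the run of RPL3 stopped short of 5. Among the 5 members that passed the test, both those that rose and those that fell thus included annotated starts with and without such a run. This rests on the exact annotated base. In RPS28 the next base is a C that opens an unbroken run of pyrimidines, and in RPL3 the base before the start is also a C.

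Over all members, silencing of OGT moved few mRNAs, and by small amounts. At an edgeR adjusted p-value of at most 0.05, RPL28 and RPS28 rose and RPS16, RPL3 and RPL36A fell, which makes 5 of 77 (6.49%). Over all genes tested, 25.4% were called, 12.7% as higher and 12.7% as lower. Among the 4865 other genes whose mean lay in the same range as the members (47.6 to 1506 CPM), 33.2% were called. Before adjustment, 11 members reached p of at most 0.05. The split of higher against lower calls moved with the scaling: it was 2 to 2 with library totals alone, 2 to 5 with TMM factors computed without the members and 8 to 5 after a correction for transcript length and GC content.

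The log2 fold changes of the members ran from -0.25 to 0.23, with a median of -0.035 against 0.0068 over all genes. Of the 77 values 50 were negative and 27 positive. The median size, regardless of sign, was 0.0593 for the members, 0.129 for the genes of the same CPM range and 0.186 for all genes. A size below 0.1 was found for 54 members (70.1%) and for 40.1% of the genes in the range. Standard errors lay between 0.0631 and 0.0842, and the 95% confidence intervals of all 77 stayed within 0.5 of 0 on the log2 scale. Their outermost bounds were -0.40 and 0.38, that is, 24.0% below to 29.8% above siControl. The errors and intervals lean on the spread of all genes, so they follow the spread between a member's own pairs only in part.

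**Figure D1:**
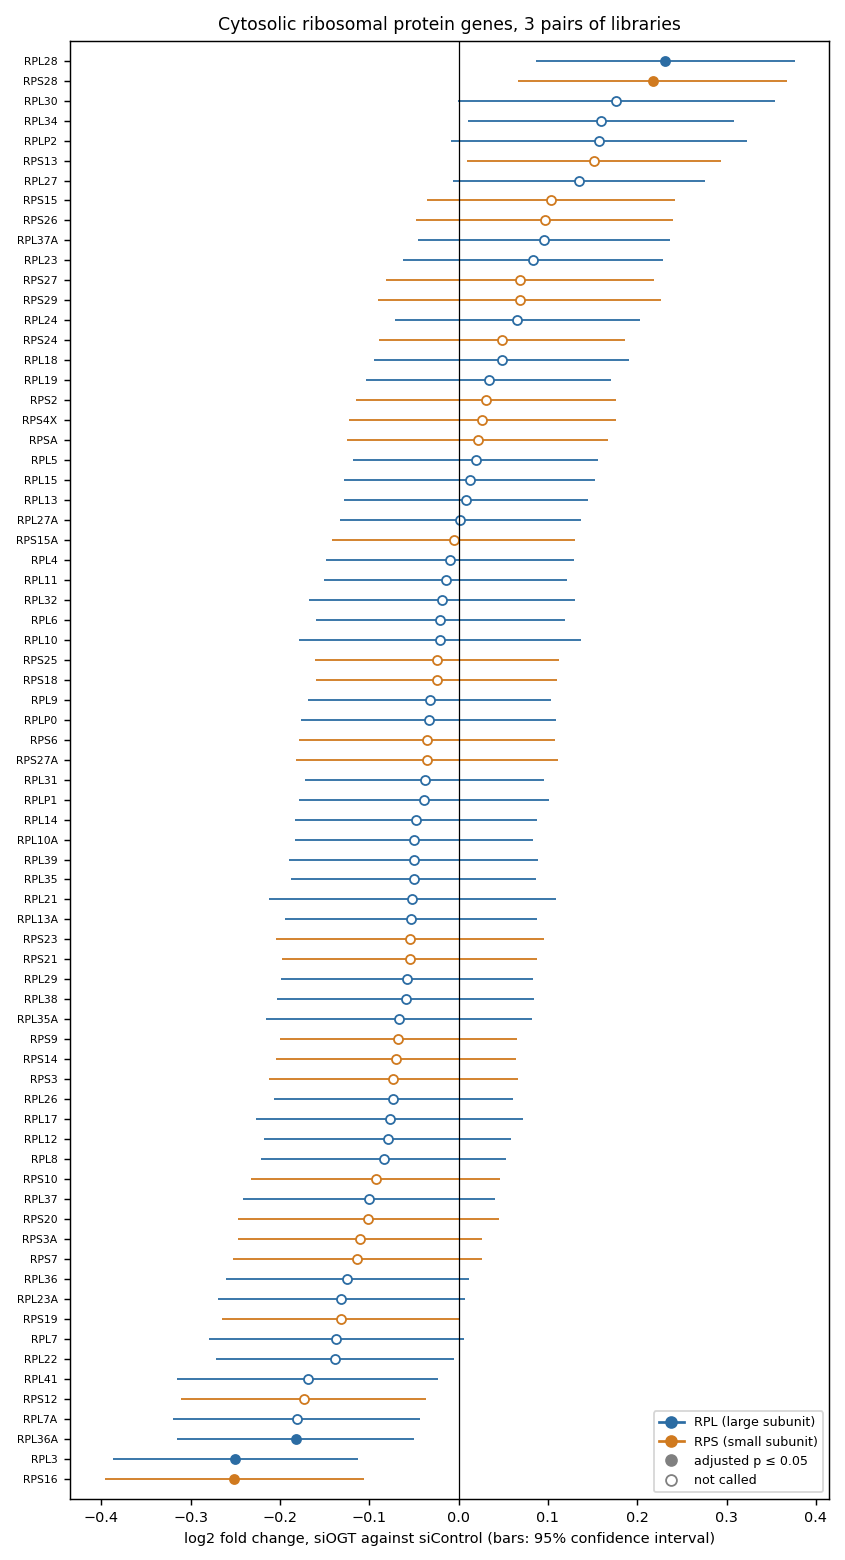
Log2 fold change (siOGT against siControl) of 72 of the 77 members, ordered by value, with 95% confidence intervals; filled points mark the 5 members called by edgeR. Values run from -0.25 (RPS16) to 0.23 (RPL28), and most intervals cross 0.

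Of the 46 large subunit genes, 3 were called, with a median of -0.039, and of the 31 small subunit genes 2, with a median of -0.028. The 77 genes together took 2.97%, 3.19% and 3.18% of the counts in siControl (mean 3.12 ± 0.123, SD, n = 3) and 2.86%, 3.16% and 3.36% in siOGT (3.13 ± 0.252). The groups overlapped, since siOGT held both the lowest and the highest library. In bulk libraries, fewer cells with a given mRNA and less of it per cell cannot be told apart, and each value is a share of the library's own total.

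The members also moved together within a pair of libraries, and not in the same direction in the 3 pairs. In pair 1, 62 members were lower and 15 higher in siOGT, with a median log2 ratio of -0.095. In pair 2, 53 were lower and 24 higher (median -0.033), and in pair 3, 28 were lower and 49 higher (median 0.038). The medians of all 12373 genes with at least 1 CPM stayed between -0.0029 and 0.0049, but the TMM scaling itself holds such medians near 0. For the other genes in the CPM range of the members, the medians were -0.0092, 0.0087 and -0.029 in pairs 1, 2 and 3. Of the members, 21 were lower in all 3 pairs and 8 higher in all 3, which leaves 48 of mixed sign. The summed share accordingly differed by -0.113, -0.0347 and 0.183 percentage points in pairs 1, 2 and 3. Whether the difference between the pairs is technical was not tested.

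**Figure D2:**
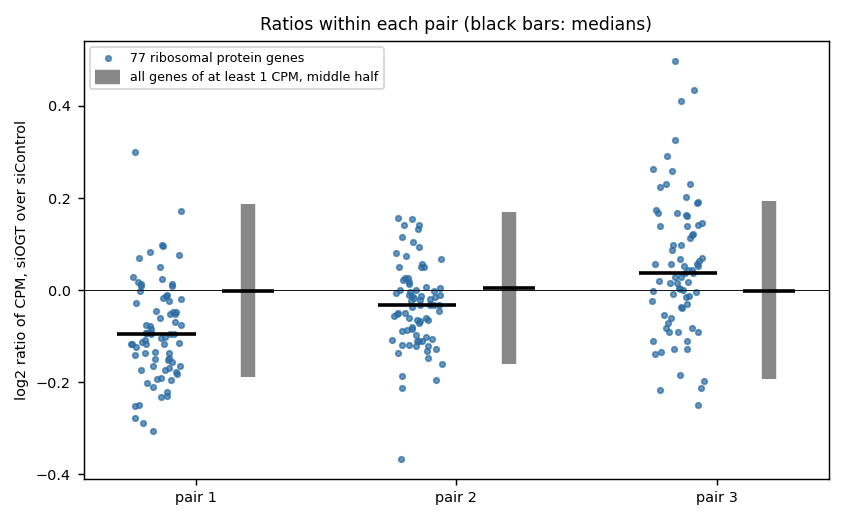
Log2 ratio of CPM, siOGT over siControl, within each of the 3 pairs. Points are the 77 members, black bars medians, and grey bars span the 25th to 75th percentile of the 12373 genes of at least 1 CPM. The median of the members is -0.095 in pair 1, -0.033 in pair 2 and 0.038 in pair 3.

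RPL3 and RPS16 fell most, and RPL3 was the member with the lowest adjusted p-value. RPL3 (chromosome 22, 39312882 to 39320389, minus strand, GENCODE 44 on hg38) encodes a large subunit protein that reaches close to the peptidyl transferase centre. It had 483, 522 and 493 CPM in siControl and 395, 451 and 415 CPM in siOGT. Every siOGT library was below every siControl library. The log2 fold change was -0.25 (SE 0.065, adjusted p = 0.00911), 15.9% below siControl.

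RPS16 (chromosome 19, 39433137 to 39435949, minus strand) encodes a protein of the head of the small subunit whose tail contacts the tRNA in the P site. The siControl libraries had 337, 378 and 355 CPM and the siOGT libraries 278, 293 and 329 CPM. The groups did not overlap, although the ratio of pair 3 (-0.11) was smaller than those of pairs 1 and 2 (-0.28 and -0.37). The log2 fold change was -0.25 (SE 0.069, adjusted p = 0.0124).

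RPL36A (chromosome X, 101390824 to 101396155, plus strand) encodes a large subunit protein near the site that the tRNA leaves. It had 173, 181 and 188 CPM in siControl and 156, 158 and 164 CPM in siOGT, again without overlap and with nearly equal ratios in the 3 pairs. The log2 fold change was -0.18 (SE 0.063, adjusted p = 0.0419). RPL36AL, a nearly identical gene on another chromosome, stayed at 108 and 109 CPM (log2 fold change 0.0094, adjusted p = 0.938). The read-through gene RPL36A-HNRNPH2 was at 36.9 and 33.3 CPM (-0.15, adjusted p = 0.271). It shares 333 bases with RPL36A on the same strand. That is 8.40% of the exonic bases of all annotated RPL36A transcripts together, but the main RPL36A transcript has only 761 bases, 318 of them coding. Reads of these 3 genes could have been divided between them in the estimated counts.

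RPL28 (chromosome 19, 55385932 to 55403250, plus strand), a large subunit protein gene with several splice forms, had 672, 909 and 819 CPM in siControl. In siOGT it had 827, 977 and 1002 CPM. The groups overlapped, but siOGT was higher in each pair, by 0.30, 0.10 and 0.29 on the log2 scale. The log2 fold change was 0.23 (SE 0.069, adjusted p = 0.0198), 17.4% above siControl.

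RPS28 (chromosome 19, 8321158 to 8323340, plus strand) encodes a small subunit protein beside the exit of the mRNA channel. It had 160, 187 and 174 CPM in siControl and 169, 209 and 232 CPM in siOGT. The groups overlapped here too, and the within-pair log2 ratios were 0.082, 0.16 and 0.41, most of the difference lying in pair 3. The log2 fold change was 0.22 (SE 0.072, adjusted p = 0.0332). Exons of KANK3 lie on the opposite strand over 17.2% of the exonic bases of all annotated RPS28 transcripts together, and the counting was strand-specific.

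None of the 5 calls held without the replicate block: the edgeR test then called 0 members and 130 genes in all, with 2 members at p of at most 0.05 before adjustment, and DESeq2 without the block called 0 members, with 3 before adjustment. With the block, DESeq2 called the 5 and RPL7A. Leaving out pair 1 ended every call but that of RPS28 (adjusted p for RPL3 0.144, RPS16 0.122, RPL36A 0.208 and RPL28 0.238). Without pair 2, RPS16 (0.103) and RPL36A (0.139) were no longer called, and without pair 3 RPS28 was not (0.199) while 9 members were called lower, among them RPL3, RPS16 and RPL36A.

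**Figure D3:**
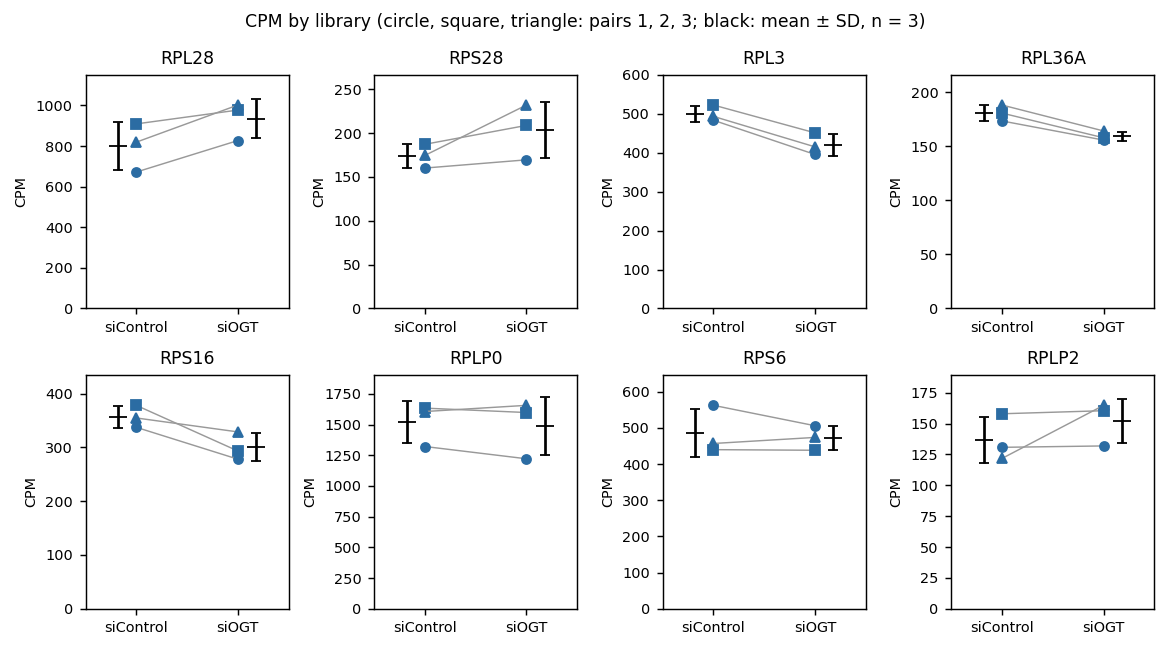
CPM (linear axis from 0) of the 5 called members and of RPLP0, RPS6 and RPLP2 in each library. Symbols and grey lines join the libraries of a pair, and black marks give the mean ± SD of 3 libraries. RPL3, RPS16 and RPL36A lie lower in every siOGT library, while the groups overlap in the other 5 genes.

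Groups that did not overlap were found for 5 members, against 23.9% of all genes tested. They were RPS16, RPL3 and RPL36A on the lower side and RPS13 and RPL30 on the higher side. RPL30, which binds a kink-turn in its own transcript in yeast, had 327, 332 and 286 CPM in siControl and 333, 333 and 404 CPM in siOGT. Its groups were thus separated by a hair in pairs 1 and 2 and by a wide margin only in pair 3 (log2 ratio 0.50), and it was not called (0.18, adjusted p = 0.137). RPS13 had 87.5, 97.6 and 97.4 CPM and 98.5, 98.8 and 117 CPM, with a log2 fold change of 0.15 (adjusted p = 0.114).

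Next below the threshold on the lower side were RPL7A, RPS12 and RPL41. RPL7A, a large subunit protein, had 633, 743 and 728 CPM in siControl and 555, 676 and 626 CPM in siOGT. It was lower in each pair, with groups that overlapped, and had a log2 fold change of -0.18 (adjusted p = 0.0507). RPS12, in the beak of the small subunit head, had a mean of 104 ± 7.07 CPM in siControl and 92.8 ± 10.5 CPM in siOGT (-0.17, adjusted p = 0.0596). RPL41, the shortest ribosomal protein, had 695, 855 and 752 CPM in siControl and 562, 791 and 707 CPM in siOGT (-0.17, adjusted p = 0.0833). On the higher side RPL34 had a log2 fold change of 0.16 (adjusted p = 0.11).

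The stalk of the large subunit, built of RPLP0, RPLP1 and RPLP2, recruits the elongation factors. RPLP0 had 1321, 1634 and 1606 CPM in siControl and 1222, 1598 and 1657 CPM in siOGT. Its groups overlapped fully, and the log2 fold change was -0.03 (95% confidence interval -0.18 to 0.11). RPLP1 was at 630 ± 26.1 and 613 ± 17.6 CPM (-0.04, adjusted p = 0.719). RPLP2 had 131, 158 and 122 CPM in siControl and 132, 160 and 165 CPM in siOGT. Pairs 1 and 2 were all but equal, and pair 3 alone differed, by 0.44, so that the log2 fold change of 0.16 had an adjusted p-value of 0.159.

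RPL5 and RPL11 form with the 5S rRNA the particle that binds MDM2 and so restrains the breakdown of p53 when ribosome assembly fails. Their mRNAs were at 386 ± 9.14 and 444 ± 26.3 CPM in siControl and at 392 ± 19.6 and 440 ± 34.2 CPM in siOGT. Log2 fold changes were 0.02 (95% confidence interval -0.12 to 0.16) and -0.01 (-0.15 to 0.12). RPS27A, whose protein is made as a fusion with ubiquitin, had -0.04 (adjusted p = 0.759). With edgeR and with DESeq2, 0 of these 6 genes of the stalk, the 5S particle and the ubiquitin fusion were called, and 0 reached p of at most 0.05 in edgeR before adjustment. RPLP2 was, however, called higher by edgeR after correction for GC content with transcript length (adjusted p = 0.0125) or coding length (adjusted p = 0.0331). At the share of all members that edgeR called (6.49%, beside 25.4% of all genes tested), a list this short would hold few calls.

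RPS6, the small subunit protein phosphorylated by S6 kinase, had 562, 440 and 457 CPM in siControl and 506, 438 and 474 CPM in siOGT (-0.04, adjusted p = 0.754). Its highest and lowest libraries were siControl 1 and siOGT 2, and the groups overlapped. RPSA, which is also known as a laminin receptor, had 928 ± 17.1 and 944 ± 90.0 CPM (0.02), and RPL10, which joins the large subunit late, in the cytoplasm, 979 ± 49.1 and 968 ± 102 CPM (-0.02). RPS4X, the X-linked copy of RPS4, was at 582 ± 46.0 and 593 ± 41.2 CPM (0.03). RPL22, an RNA-binding protein that cells can spare, was lower in each pair by 0.15, 0.13 and 0.14 (log2 fold change -0.14, adjusted p = 0.12). After correction for GC content with transcript length or coding length, edgeR called RPL22 lower (adjusted p = 0.0249 and 0.0342).

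Around the exit tunnel, through which the new protein leaves the large subunit, edgeR and DESeq2 called 0 of 8 members, and 0 passed in edgeR before adjustment. Without pair 3, however, edgeR called RPL17 lower (adjusted p = 0.0495). Over all members edgeR called 6.49% and over all genes 25.4%, so this list and the next ones are too short to differ from the other members. The extremes were RPL23A (-0.13) and RPL17 (-0.08) on the lower side and RPL19 (0.03) on the higher, with RPL4 at -0.01. RPL39, in the tunnel wall, was at -0.05. Along the mRNA path of the small subunit, RPS28 was the single call among 8. RPS26, its neighbour at the channel exit, had a log2 fold change of 0.10 (adjusted p = 0.335), and RPS3 and RPS14 were both at -0.07. In the small subunit head, RPS16 was the single call among 10 and the lowest, followed by RPS12 (-0.17). RPS12 was also called lower with TMM factors computed without the members and after the correction for coding length and GC content. RPS20 was called lower without pair 3, and RPS15 higher after the correction for transcript length and GC content. RPS15 (0.10) and RPS29 (0.07) were at the upper end.

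Of 9 ribosomal protein genes mutated in Diamond-Blackfan anaemia, an inherited failure of red cell production, edgeR and DESeq2 called 0, also before adjustment in edgeR. Without pair 3, however, edgeR called RPS7 lower. Beside 6.49% of all members and 25.4% of all genes called by edgeR, 0 of 9 does not set these genes apart from the other members. RPS19, the gene most often affected, had 196, 236 and 237 CPM in siControl and 178, 216 and 215 CPM in siOGT. It was lower in each pair by 0.14, 0.12 and 0.13, and its log2 fold change was -0.13 (adjusted p = 0.141). RPS7 was at -0.11, RPS24 at 0.05 and RPS26 at 0.10.

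Several members serve as reference genes in RT-qPCR. Of 10 such genes edgeR and DESeq2 called 0, and 1 (RPS13) passed in edgeR before adjustment. After the correction for transcript length and GC content, however, edgeR called RPL27, RPL30 and RPS13 higher. RPL30 was also called higher without pair 2. Since edgeR called 6.49% of all members and 25.4% of all genes, 0 of 10 does not set these genes apart from the other members. RPL13A had -0.05 (95% confidence interval -0.19 to 0.09), RPS18 -0.02 (-0.16 to 0.11) and RPLP0 -0.03. RPS23 was the lowest of the 10 at -0.05, and RPS13 (0.15) and RPL30 (0.18) were the highest.

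Levels of different members were set side by side per length of the coding sequence, as CPM per kb over the 6 libraries. RPL41 was the highest at 9694 CPM per kb, followed by RPS26 (2618), RPL28 (2111), RPL37 (2031) and RPLP1 (1816). The lowest were RPS13 (220), RPS21 (228), RPS27A (245), RPS12 (249) and RPL22 (249). The order depends on the length used, since several annotated transcripts are much longer than their coding sequence, and reads from very short transcripts such as that of RPL41 depend on fragment length. The members' median coding length was 456 bases against 1416 for all genes tested, and their GC content was 47.6% against 48.9%.

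The family is rich in copies. GENCODE 44 lists 1587 pseudogenes named after the 77 members, with a median of 14 per member, and all 77 have some, among them 52 for RPL36A, 13 for RPL3, 6 for RPS16, 5 for RPS28 and 2 for RPL28. None of these names was among the symbols of the files, so reads from such copies may have been counted for the parent gene. RPSAP58, a copy of RPSA that the files list as a gene of its own, was at 15.4 and 16.4 CPM (0.09, adjusted p = 0.503). The read-through gene RPS10-NUDT3 rose from 0.388 to 1.06 CPM (1.50, adjusted p = 0.0137), while RPS10 had 435 and 409 CPM (-0.09, adjusted p = 0.339). That rise rested on 18, 7 and 6 expected counts in siControl and 36, 28 and 22 in siOGT. It shares 730 bases with RPS10, 31.5% of the exonic bases of all annotated RPS10 transcripts together, and the main RPS10 transcript has 588 bases. Whether reads were divided between these genes was not tested.

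The start sequences were then summarised for the 62 members that the RefSeq table of promoters holds. The other 15 members had no entry there. A C at an annotated start followed by pyrimidines, at least 5 in a row, was present in 46 of 62 members (74.2%), in 821 of the 11456 tested genes with an entry (7.17%) and in 5.14% of the 27305 genes of the table. The letters CTTTC on the strand of the gene, from 10 bases before to 20 after the start, occurred in 33 of 62 members (53.2%) and in 687 of the 11456 tested genes. In the whole windows of 250 bases before to 50 after the start, read on both strands, CCGGAAG was found in 35.5% and 20.6%, GGGCGG in 58.1% and 74.6%, TATAA in 19.4% and 16.5% and AAGATGGC in 9.68% and 5.92%. A match is a description of letters and not a binding site.

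**Figure D4:**
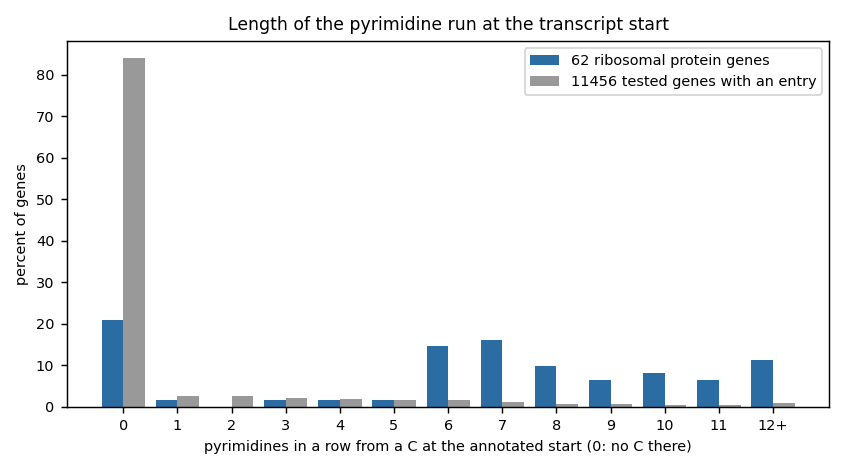
Percent of genes by the number of pyrimidines in a row from a C at the annotated start, for the 62 members and the 11456 tested genes with an entry. No C at the start was found in 21.0% of members and 84.0% of tested genes, and most members had runs of 6 or more.

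Members with such a start had a median log2 fold change of -0.050 (46 genes, 3 called: RPL28 up, RPS16 and RPL36A down) and members without it 0.0013 (16 genes, 2 called: RPS28 up, RPL3 down). The split rests on the exact annotated base, and a run that opens beside it, as in RPS28, counts as absent. Of the 775 other tested genes with such a start, 220 (28.4%) were called, 118 as higher and 102 as lower, with a median of -0.0064. Of the 10619 others without it, 26.2% were called.

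Of 9 tested relatives of the members, RPL39L was the single call (11.1%, beside 25.4% of all genes). RPL39L, the copy of RPL39 found chiefly in testis, fell from 5.04 to 3.24 CPM (log2 fold change -0.66, edgeR adjusted p = 0.00819). DESeq2 with the block called 0 of the 9, and without pair 3 edgeR called 2. RPS27L, a p53 target, was at -0.21 (adjusted p = 0.0874), and RPL26L1 and RPL22L1 were highest at 0.16 and 0.14. FAU, which encodes a ribosomal protein fused to a ubiquitin-like protein, had -0.10, and RACK1, a scaffold on the small subunit, 0.04.

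Ribosomes are built by a large set of assembly factors. Of 54 tested, 15 rose and 0 fell in edgeR (27.8%, median 0.13), beside 25.4% of all genes called and 12.7% called higher. In this list 9 rose and 0 fell in DESeq2 with the block, and 1 gene on the lower side passed in edgeR before adjustment. DDX10, a helicase of the small subunit processome, rose from 29.1 to 45.2 CPM (0.64, adjusted p = 8.575e-06), and ZNF622, which acts late on the large subunit, from 47.8 to 64.8 CPM (0.44, adjusted p = 2.001e-04). HEATR1 (-0.18, adjusted p = 0.0936) and MDN1 (-0.16) were the lowest. Without the block, 1 of the 54 was called, and without pair 1, 3 were. Without pair 2, 10 rose and 2 fell.

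RNA polymerase I, which transcribes the rRNA precursor, was represented by 15 genes of its subunits and initiation factors. Of these 5 rose and 0 fell in edgeR (33.3%, median 0.12, beside 25.4% of all genes), with 0 on the lower side before adjustment, and DESeq2 called 3 higher and 0 lower. TAF1D, a subunit of the selectivity factor SL1, rose from 13.2 to 20.9 CPM (0.68, adjusted p = 4.045e-05) and TAF1A, another of its subunits, from 3.02 to 4.24 CPM (0.48, adjusted p = 0.0495). ZNRD1 (POLR1H) and TAF1B were lowest at -0.16 and -0.15. Without the block, edgeR called 0 of the 15 and DESeq2 1, and leaving out a pair left 3, 3 and 2 calls.

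Of 24 genes of the mTOR pathway, cap binding and TOP mRNA binding, 6 rose and 0 fell in edgeR (25%, median 0.07, beside 25.4% of all genes), with 0 on the lower side before adjustment and 5 higher and 0 lower in DESeq2. LARP4, which binds poly(A) tails and stabilises mRNAs of ribosomal proteins, rose from 64.8 to 90.2 CPM (0.48, adjusted p = 6.171e-05), and TSC1, which restrains mTORC1, from 77.2 to 95.6 CPM (0.31, adjusted p = 0.00292). RPTOR, RPS6KB1, RPS6KB2 and ZNF598 also rose. These genes act in opposite directions on mTORC1 and its targets. PDCD4 (-0.18) and RHEB (-0.13) were lowest and were not called. Leaving out pairs 1, 2 and 3 in turn gave 4, 4 and 7 calls, all higher.

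Translation factors and other known TOP mRNAs gave 1 gene higher and 2 lower among 20 (15% called, beside 25.4% of all genes), with a median of -0.03. HNRNPA1, a splicing factor, fell from 581 to 467 CPM (-0.32, adjusted p = 0.00264) and EEF1D, an exchange factor for the elongation factor EEF1A1, from 159 to 136 CPM (-0.22, adjusted p = 0.0174). EIF3E rose (0.19, adjusted p = 0.0419), and EIF4A2 was at 0.14. The call of EIF3E was lost whichever pair was left out, and 1, 1 and 4 genes were then called lower. Of 78 mitochondrial ribosomal protein genes, 9 rose and 4 fell (16.7%, median 0.04, beside 25.4% of all genes). MRPL1 (0.44) and MRPS30 (0.37) rose most, and MRPL41 (-0.42) and MRPL16 (-0.33) fell most. Without pair 1, 4 of the 78 rose and 1 fell, and DESeq2 with the block called 3 higher and 1 lower.

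Of 12 tested transcription factors linked to ribosomal protein promoters or growth, ZBTB7A was the single call (8.33%, beside 25.4% of all genes). It rose from 189 to 235 CPM (0.32, adjusted p = 0.00171), while GABPB1 (-0.12) and SP1 (-0.08) were lowest. A list of 12 snoRNA host genes with TOP starts, such as GAS5, had no symbol in the files and was not analysed here.

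**Figure D5:**
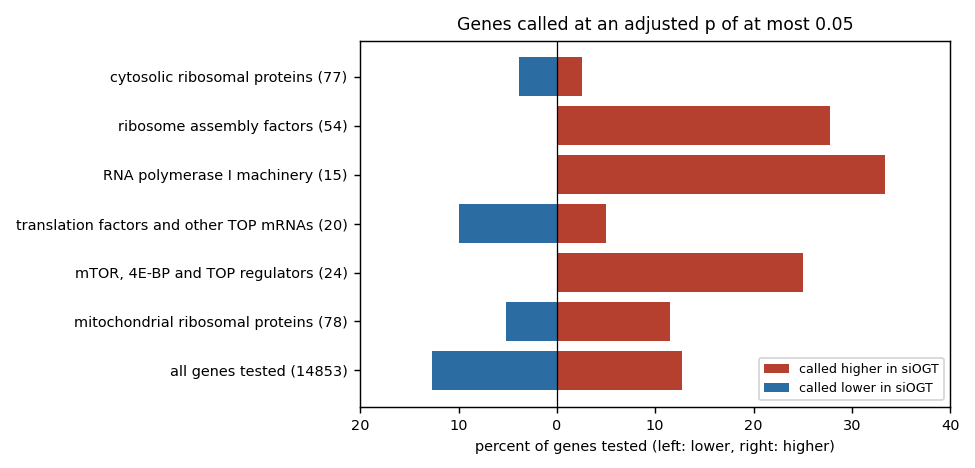
Percent of tested genes called lower (left) and higher (right) in siOGT by edgeR for the members, for 5 related lists and for all 14853 genes, with the number tested in brackets. Of the cytosolic ribosomal protein genes 3 were called lower and 2 higher of 77, and of the assembly factors 15 higher and 0 lower of 54.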

How the data were processed

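RNA of 3 siControl and 3 siOGT cultures of LX-2 cells was sequenced. Per the labels and the methods, the authors selected mRNA with oligo-dT, mapped paired-end reads to hg38 with Bowtie2 2.3.5.1 and counted them per gene, by strand, with RSEM 1.3.1. The deposited values are expected counts, estimated and not normalized. A GENCODE annotation is named in the methods, but the files also carry LOC symbols, which NCBI assigns, so which gene models were counted remains uncertain. A deposited table of the authors' own DESeq2 1.36.0 comparison (means, log2 fold changes and adjusted p-values) was not used.

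Counts were rounded, genes with a total below 10 were removed, and all 14853 genes were tested with edgeR 4.0.16 (R 4.3.3; two-sided quasi-likelihood F test, TMM factors, replicate number as a block), with Benjamini-Hochberg adjustment over all genes and calls at 0.05. The methods pair samples of one replicate. Deviations from the group means correlated between same-numbered libraries by 0.69, 0.53 and 0.33 over 12373 genes. With the block, p-values rest on the spread of the differences within these pairs, not on the spread between all samples. In addition, edgeR draws the spread of each gene toward the trend over all genes (prior weight 15.5 degrees of freedom). Replicates of a group all differed by more than sampling noise. The script was tested on simulated data. Alternatives were DESeq2 1.42.0, no block, other scalings and filters, a threshold of 0.01, corrections for length and GC content, and each pair left out.

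The members and lists were chosen with earlier results of these data known. Values are given for the 6 highest and 6 lowest log2 fold changes, for members of the stalk, the 5S particle and the ubiquitin fusion, for RPS6, RPS19, RPL10, RPL22, RPL3, RPS4X, RPL41, RPSA, RPL13A, RPS18, RPL39 and RPL36A, and for the 2 highest and 2 lowest of each other list. A few further genes were picked once values were known. Gene positions come from GENCODE 44 (hg38). A few genes are not reported here by name.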

Additional observations from a re-analysis of the deposited data

How the results depend on the processing

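The counts of members called depended on the replicate block. With no replicate block, edgeR called 0 higher and 0 lower, and DESeq2 0 and 0, against 2 and 3 with it, and genes called over the whole table went from 3766 to 130 and 849. With the block, DESeq2 called 2415 genes. Leaving out each pair in turn gave between 1 and 3 members higher and between 0 and 9 lower, and 2192 genes in all without replicate 1. TMM factors computed without the members gave 5 lower. The correction for transcript length and GC content gave 8 higher and 5 lower, and the correction for coding length and GC content, chosen after seeing the data, 3 and 7. A threshold of 0.01 left 0 higher, 1 lower (RPL3) and 2083 genes in all. The cause of these shifts was not tested, except that the block and the left-out pair change the samples and the residual spread by construction. The median log2 fold change of the members lay between -0.070 and 0.0015, crossing 0 without replicate 1, and that of OGT between -2.25 and -2.11, called under every alternative run. The log2 fold changes of the 5 called members kept their sign under every alternative.

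Lists of related genes followed the block too. Without it edgeR called 1 of the assembly factors and 0 genes of each other list. DESeq2 with the block called 9 assembly factors, 3 genes of RNA polymerase I and 3 mitochondrial ribosomal protein genes as higher, against 15, 5 and 9. With 3 pairs, a member whose 95% confidence interval includes 0 may have changed by any amount within that interval.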
